A study of Mus musculus with 4 samples.

Results

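The 10 genes described here are markers of T cell exhaustion, and they were read by symbol out of the 33696 genes counted in every library. They comprise 6 inhibitory receptors (Pdcd1, Lag3, Tigit, Havcr2, Ctla4 and Cd160), 3 transcription factors (Tox, Eomes and Nr4a2) and 1 enzyme of the cell surface (Entpd1). The set was chosen because Tox stood out for its low ratio at week 24 in all cells of the series, so the week 24 values below are a description of what chose the members. Among genes with at least 50 unique molecular identifiers (UMIs, tags that mark single captured transcripts), however, Cd160 had a lower ratio at week 24 in all kept cells than Tox (log2 −2.41 against −2.19). Levels were followed in CD8 T cells, CD4 T cells and NK cells, which were selected by UMIs of lineage markers and numbered 2453, 817 and 484 of 26825 kept cells.

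Male C57BL/6J mice were given the FPC diet, rich in fructose, palmitate and trans-fat with added cholesterol, from 7 weeks of age, a model of metabolic dysfunction-associated steatohepatitis (MASH), and their livers were sampled by fine-needle aspiration (FNA). P-LC24 mice had 0.05% cholesterol in the diet for 24 weeks and P-HC24 mice had 1.25% for 24 weeks. I-LC32 mice had 0.05% for 32 weeks, and I-HC32 mice had 1.25% until week 24 and then 0.05% for 8 weeks. All groups shared the FPC diet, so no group on a standard diet was compared. Each condition was 1 library of non-parenchymal liver cells, pooled from 12 biopsies, 4 from each of 3 mice, and the mice of an arm were sampled at both time points. The Progression comparison (Prog) set P-HC24 over P-LC24 and the Intervention comparison (Int) set I-HC32 over I-LC32, and they share no library. With 1 library per condition no test between conditions was possible, and an effect of diet cannot be told apart from one of the animals or of library preparation. Intervals below are 95% intervals that cover counting error only. Where 4 values are given "in library order", the week 24 libraries come first (P-LC24 before P-HC24) and the week 32 libraries after them (I-LC32 before I-HC32).

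T cell exhaustion is a state that T cells enter when their antigen receptor is stimulated for a long time, as in chronic infection and tumors. Exhausted cells carry several inhibitory receptors at once, and the nuclear factor Tox installs and maintains the program. Several of the same genes also have roles outside exhaustion. Tox and Eomes act in the development of NK cells, Ctla4 restrains activated T cells and is carried by regulatory T cells, Nr4a2 is an early response gene of many cell types, and Entpd1 (CD39) breaks down extracellular ATP on T cells, B cells and macrophages. In MASH livers, CD8 T cells that carry the PD-1 receptor have been described as a resident, self-reactive population.

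The libraries held 50941106 UMIs over 7035 barcodes in P-LC24 versus 73837023 over 7946 in P-HC24, and 79215858 over 9828 in I-LC32 versus 89257239 over 8389 in I-HC32. After the cell filters, 5142, 6914, 7418 and 7351 cells were kept in that order. CD8 T cells numbered 640 in P-LC24 versus 628 in P-HC24, and 826 in I-LC32 versus 359 in I-HC32, with a median of 8884, 8427, 7947 and 7041 UMIs per cell. They were 12.4% of kept cells in P-LC24 (11.6 to 13.4) versus 9.08% in P-HC24 (8.42 to 9.78), and 11.1% in I-LC32 (10.4 to 11.9) versus 4.88% in I-HC32 (4.40 to 5.40), so the smallest share lay in I-HC32. CD4 T cells numbered 153, 119, 278 and 267, and NK cells 223, 83, 128 and 50. Between 17 and 41 barcodes were shared by any pair of libraries.

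The gates were described by markers of each lineage, some of which also set the gates. These are Cd3d, Cd3e and Cd3g for T cells and Ncr1 and Klrb1c for NK cells. Cd79a, Cd79b, Ms4a1, Csf1r, Adgre1 and C1qb were limited by the gates. The 8 T cell markers not used for gating summed to 2904, 2886, 3441 and 3480 CPM in the CD8 gate, in library order. The 8 such NK markers summed to between 12788 and 20616 CPM in the NK gate. All 11 T cell markers were detected in the CD8 gate of every library, and their summed level was 4665, 4507, 5178 and 5094 CPM (UMIs per 1000000 UMIs of the gate) in library order, led by Trbc2. The CD4 gate held all 11 as well, at between 4988 and 5660 CPM. In the NK gate all 10 NK markers were detected, led by Gzma, at between 14222 and 22381 CPM, while Cd3d, Cd3e and Cd3g were at 0 because the gate required it. Signal of other lineages in the CD8 gate differed between libraries. The 13 myeloid markers were all detected and summed to 138, 210, 161 and 288 CPM, with Lyz2 at 10.6, 77.7, 18.5 and 165 CPM. The 11 B cell markers, all detected, summed to 258, 330, 402 and 468 CPM. Of 6 hepatocyte markers, led by Alb in 3 of the 4 libraries, the sum was at most 8.04 CPM. The 5 erythroid markers, led by the haemoglobin gene Hbb-bs, summed to 10210, 9027, 18898 and 999 CPM, so I-HC32 held far less haemoglobin RNA than the others. The part of these signals in the results was not tested. B cells held at most 0.807 CPM of Tox and 0.219 CPM of Pdcd1, but between 30.5 and 40.9 CPM of Entpd1, and myeloid cells held up to 406 CPM of Nr4a2, 208 CPM of Entpd1 and 63.2 CPM of Havcr2.

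The genes are protein coding, and their spans are given in GRCm39. Tox lies at chr4:6686353-6991644, Pdcd1 at chr1:93966027-93980312, Lag3 at chr6:124881320-124888765, Tigit at chr16:43469100-43484509 and Cd160 at chr3:96706079-96736667, all on the minus strand, as is Nr4a2 at chr2:56996842-57014331. Havcr2 lies at chr11:46345673-46374149, Ctla4 at chr1:60926159-60954991, Eomes at chr9:118307280-118315200 and Entpd1 at chr19:40600810-40731585, on the plus strand. Tox spans 305 kb. Other annotated genes overlap Tox, Ctla4 and Entpd1 on the same strand, among them the long noncoding RNA Gm68786 with Tox, so UMIs in shared stretches are uncertain for these members. Eomes and Cd160 are overlapped on the opposite strand only, Cd160 by the coding gene Pdzk1 among others. The promoters of 3 receptors are shown because most members were low together in P-HC24. RefSeq promoter sequences (GRCm38.p6 table, 250 bases before to 50 after the start) matched 8 of the 10 members, with 10 promoters in all. Tox and Lag3 had none. Each sequence was found once in GRCm39, which gave the positions. The capitals mark GGAAA, the core of the sites bound by NFAT factors, or its reverse complement TTTCC.
Pdcd1 promoter, chr1:93980229-93980528, minus strand: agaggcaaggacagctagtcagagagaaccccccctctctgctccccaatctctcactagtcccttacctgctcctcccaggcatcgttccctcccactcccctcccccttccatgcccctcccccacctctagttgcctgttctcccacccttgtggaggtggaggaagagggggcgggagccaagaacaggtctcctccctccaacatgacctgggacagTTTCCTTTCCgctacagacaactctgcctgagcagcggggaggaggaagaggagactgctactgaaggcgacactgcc
Tigit promoter, chr16:43484498-43484797, minus strand: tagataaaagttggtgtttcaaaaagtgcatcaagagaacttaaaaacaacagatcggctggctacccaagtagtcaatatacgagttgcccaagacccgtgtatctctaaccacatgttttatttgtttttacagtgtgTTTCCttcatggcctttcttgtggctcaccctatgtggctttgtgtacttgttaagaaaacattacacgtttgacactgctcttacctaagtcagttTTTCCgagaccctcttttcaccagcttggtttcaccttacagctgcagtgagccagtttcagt
Havcr2 promoter, chr11:46345508-46345807, plus strand: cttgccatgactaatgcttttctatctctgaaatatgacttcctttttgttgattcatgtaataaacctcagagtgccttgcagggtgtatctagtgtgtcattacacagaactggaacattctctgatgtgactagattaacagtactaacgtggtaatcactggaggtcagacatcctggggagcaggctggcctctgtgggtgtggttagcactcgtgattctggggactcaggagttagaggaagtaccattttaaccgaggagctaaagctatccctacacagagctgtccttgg
In the Pdcd1 promoter 2 adjoining cores began at −28 and −23 from the start, in the Tigit promoter 2 cores began at −110 and −13, and the Havcr2 promoter held none. On both strands, GGAAA was present in 7 of the 10 member promoters and in 61.3% of 32851 promoters in the table. The AP-1 motif TGANTCA was present in 1 of 10, that of Havcr2 at −200, and in 7.81% of all. The NR4A motif AAAGGTCA was present in 0 of 10 and 1.51% of all, and the T-box motif AGGTGTGA in 0 of 10 and 1.28%. These matches describe letters in the windows and not bound sites.

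In CD8 T cells all 10 members were lower in P-HC24 than in P-LC24, as were 70.5% of all genes compared. Of the members, 9 of 10 were at least 1.5-fold lower. Among them Lag3, Tigit and Havcr2 held 29, 43 and 22 UMIs in P-HC24, so they passed the minimum of 50 UMIs through P-LC24 alone. Of 9372 genes with at least 50 UMIs over both libraries, 17% were at least 1.5-fold lower and 2.62% at least 1.5-fold higher, the latter with none of the members. The median log2 ratio was −1.62 over the members and −0.23 over all genes. At week 32 the picture differed. In the Intervention comparison 4 of 10 members were at least 1.5-fold higher (6.66% of 9455 genes) and 1 of 10 was lower (4.4%), with a median of 0.51 over the members and 0.06 over all genes. The lower member, Cd160, passed the minimum of 50 UMIs through I-LC32 alone. The low week 24 values are those that chose the set and are given as a description.

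**Figure D1:**
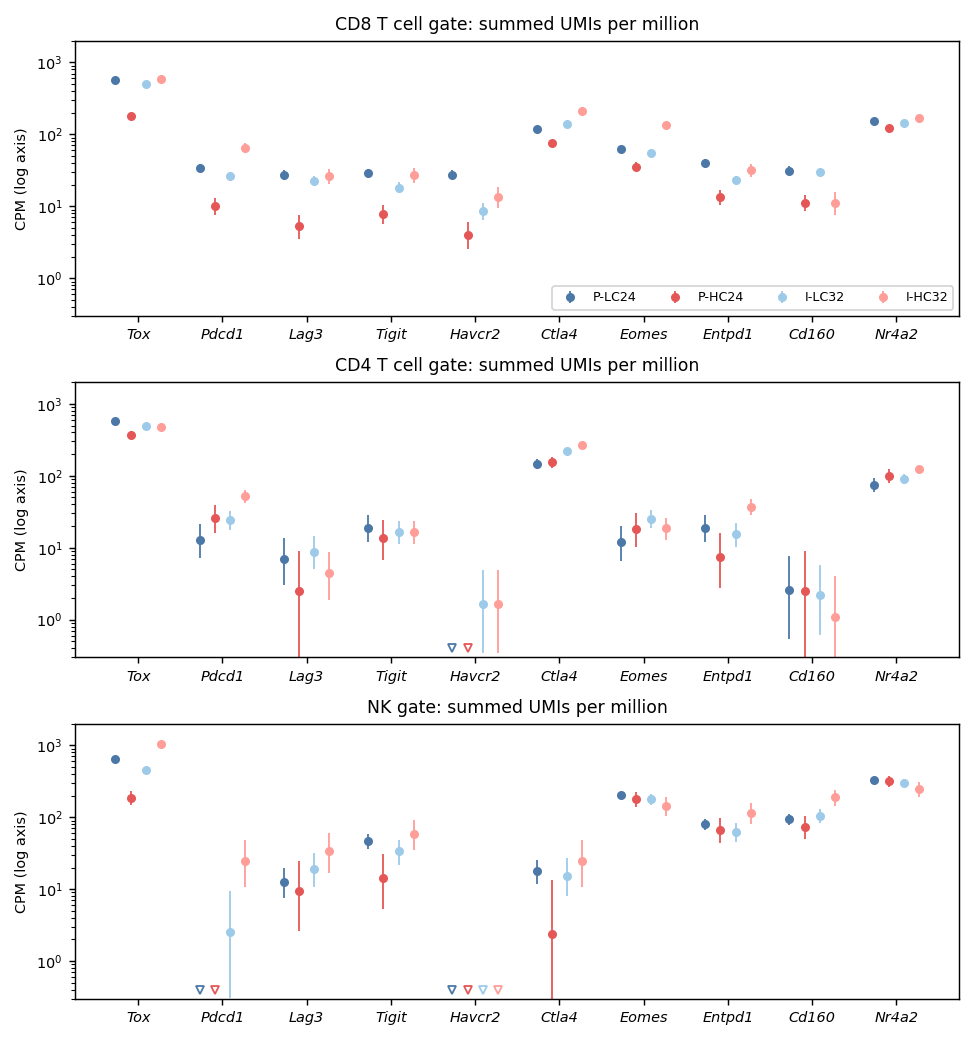
Level of each member as CPM of summed UMIs (log axis) in the CD8 T cell, CD4 T cell and NK gates of the 4 libraries. Points are libraries, bars are exact Poisson 95% intervals of counting error, and open triangles at the foot mark 0 UMIs. In CD8 T cells the P-HC24 point is the lowest of the 4 for every member except Cd160, where it lies beside I-HC32.

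Tox, the factor that maintains the exhausted state, was read in CD8 T cells at 562 CPM in P-LC24 (3355 UMIs) versus 178 in P-HC24 (978 UMIs), and 502 in I-LC32 (3530 UMIs) versus 590 in I-HC32 (1629 UMIs). P-HC24 was low, and the other 3 libraries lay within a narrow range. The log2 ratio was −1.66 (−1.76 to −1.56) in Progression, a 3.16-fold lower level, and 0.23 (0.15 to 0.32) in Intervention. With every cell thinned to 3000 UMIs, a Tox UMI was found in 52.4% of CD8 T cells of P-LC24 (48.4 to 56.3) versus 28.8% of P-HC24 (25.3 to 32.6), and 48.6% of I-LC32 (45.1 to 52.1) versus 50.7% of I-HC32 (45.3 to 56.1). Without thinning the shares were 70.3%, 45.7%, 63.7% and 62.4%. Thinned B cells, which should lack Tox, had a UMI in at most 0.266% of cells, at median depths of 5808 to 8286 UMIs before thinning. Cells with Tox also held fewer of its transcripts in P-HC24, with a mean of 3.41 UMIs per positive cell against 7.46 in P-LC24, 6.71 in I-LC32 and 7.27 in I-HC32.

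Eomes, a T-box factor of memory, exhausted and NK cells, was at 62.3 CPM in P-LC24 versus 35.5 in P-HC24, and 55.9 in I-LC32 versus 134 in I-HC32. I-HC32 was the highest library and P-HC24 the lowest, with log2 ratios of −0.81 (−1.07 to −0.56) in Progression and 1.27 (1.06 to 1.47) in Intervention. Nr4a2, a nuclear receptor induced by antigen receptor signals, varied least, at 152, 121, 142 and 169 CPM in the same order. Its log2 ratios of −0.33 (−0.47 to −0.18) and 0.25 (0.09 to 0.41) did not reach 1.5-fold, and it was the 1 member outside the count for Progression.

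Pdcd1 encodes PD-1, the inhibitory receptor most widely used to mark exhausted cells. Its level in CD8 T cells was 34.2 CPM in P-LC24 versus 10.0 in P-HC24, and 26.0 in I-LC32 versus 64.4 in I-HC32. The level in I-HC32 lay above all others and that in P-HC24 below all others, without overlap of their intervals. The log2 ratio was −1.77 (−2.23 to −1.34) in Progression and 1.31 (1.0 to 1.61) in Intervention. In cells thinned to 3000 UMIs, 10.5%, 1.77%, 6.17% and 15.8% had a Pdcd1 UMI in library order, against at most 0.0693% of B cells.

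Havcr2 (TIM-3), a receptor of terminally exhausted cells, had the lowest Progression ratio of the members in CD8 T cells. It was at 27.6 CPM in P-LC24 (165 UMIs) versus 4.00 in P-HC24 (22 UMIs), and 8.53 in I-LC32 (60 UMIs) versus 13.4 in I-HC32 (37 UMIs). P-LC24 was the highest, and its interval overlapped that of no other library. The log2 ratio was −2.79 (−3.50 to −2.14) in Progression and 0.65 (0.02 to 1.27) in Intervention. Few cells carried these UMIs: 5.87% of thinned cells in P-LC24 versus 0.966% in P-HC24, and 1.23% in I-LC32 versus 2.29% in I-HC32.

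Lag3, a receptor for MHC class II, was at 27.1, 5.28, 22.3 and 26.4 CPM in library order. Only P-HC24 departed from the others, with log2 ratios of −2.36 (−2.99 to −1.79) and 0.24 (−0.18 to 0.65). Tigit, which competes for the ligand Pvr, was at 28.8, 7.82, 18.2 and 26.8 CPM, with ratios of −1.88 (−2.40 to −1.39) and 0.56 (0.13 to 0.98). Entpd1, the ectonucleotidase CD39, was at 39.5, 13.3, 22.9 and 31.5 CPM, with ratios of −1.57 (−1.97 to −1.19) and 0.46 (0.07 to 0.85). These 3 genes thus shared a low level in P-HC24, and none of them reached 1.5-fold at week 32, where the intervals of Tigit and Entpd1 lay above 0 and that of Lag3 did not. The size of the Entpd1 ratio in Progression depended on few cells and on the processing. It was −2.45 with Scrublet doublets left out, which removed 3 of the 628 CD8 T cells of P-HC24, −2.24 with stricter gates, −2.67 in thinned cells and −0.94 with a limit of 5% mitochondrial UMIs. For Tigit the Intervention ratio was 0.71, above 1.5-fold, without the 5% deepest cells.

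Ctla4, which competes with CD28 for its ligands, was at 117 CPM in P-LC24 versus 76.9 in P-HC24, and 139 in I-LC32 versus 211 in I-HC32. Both of its ratios lay at the edge of the 1.5-fold limit, −0.60 (−0.78 to −0.42) and 0.60 (0.45 to 0.75). Ctla4 was not silent in B cells, where it stood at 78.6, 111, 151 and 171 CPM, so the B gate gives no background for this gene. Free RNA, estimated from immunoglobulin UMIs, would account for at most 3.93 CPM of Ctla4 in the CD8 gate of any library. Cd160, a receptor of cytotoxic and innate-like lymphocytes, had a pattern of its own at 31.3, 11.3, 29.6 and 11.2 CPM. It was low in both libraries of the high cholesterol arm, with ratios of −1.47 (−1.91 to −1.05) and −1.40 (−1.99 to −0.85), and was the 1 member lower in Intervention.

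**Figure D2:**
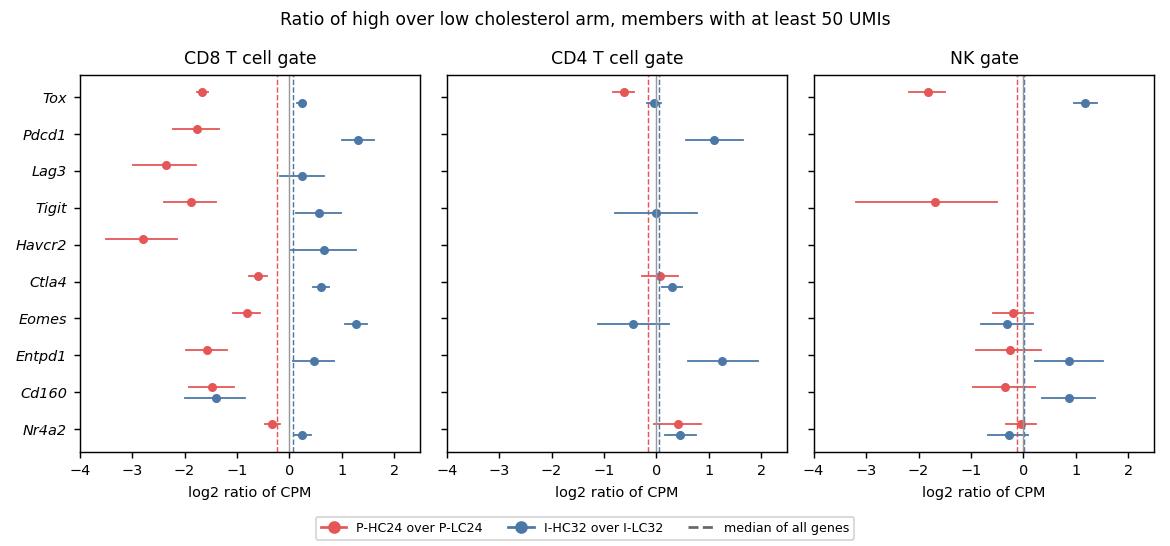
Log2 ratio of CPM in Progression (P-HC24 over P-LC24, red) and Intervention (I-HC32 over I-LC32, blue) for members with at least 50 UMIs over both libraries. Bars are exact 95% intervals of counting error and dashed lines are the median of all genes in the gate. In CD8 T cells every red point lies left of the median of all genes, and every blue point but that of Cd160 lies right of 0.

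Mitochondrial content and stress genes also differed between these libraries. The median mitochondrial share of CD8 T cells was 3.75% in P-LC24 versus 4.86% in P-HC24, and 4.34% in I-LC32 versus 3.68% in I-HC32. Of 12 immediate early genes that dissociation can induce, none was at least 1.5-fold lower and 2 (Jund and Atf3) were higher in Progression, with a median log2 ratio of 0.28. Their part in the members' ratios was not tested. With a limit of 5% mitochondrial UMIs, which left 349 CD8 T cells for P-HC24 and 574 for P-LC24, the log2 ratio of Tox was −1.45, that of Havcr2 −2.04 and that of Entpd1 −0.94. Under that limit 8 of 10 members were at least 1.5-fold lower in Progression and 2 of 10 were higher in Intervention, where Havcr2 and Ctla4 no longer reached 1.5-fold. The shares over all genes given above do not hold for this limit or for the alternatives that follow, so these counts have no such share beside them. The count of 4 members higher in Intervention was the less stable one, and was 2 also as UMIs per cell or at 2-fold, and 6 with stricter gates. It was 3 with the cell richest in each gene left out of every library, when Havcr2 was at 0.43 (−0.31 to 1.15). Of the 73 Entpd1 UMIs in P-HC24, 19 came from a single cell.

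Members were detected together in the same cells. At 3000 UMIs per cell, CD8 T cells held a mean of 1.68 members in P-LC24 versus 0.887 in P-HC24, and 1.47 in I-LC32 versus 1.85 in I-HC32. At least 3 members were found in 22.9% (19.6 to 26.3), 8.05% (6.03 to 10.5), 21.1% (18.3 to 24.1) and 33.5% (28.6 to 38.7) of cells in that order. At least 5 were found in 71 of 630 cells of P-LC24, 6 of 621 of P-HC24, 32 of 811 of I-LC32 and 26 of 349 of I-HC32, which is 11.3%, 0.966%, 3.95% and 7.45%. Cells with many members were thus scarce in P-HC24 and most frequent in P-LC24, while cells with 3 or more were most frequent in I-HC32.

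In each library the other members were found more often in CD8 T cells with a Tox UMI than in those without, with 1 exception given below. Some of these differences rested on few cells and had overlapping intervals. For Entpd1 in P-HC24 they were 5 of 179 cells with Tox and 6 of 442 without. For Cd160 in I-HC32 they were 5 of 177 and 2 of 172. Pdcd1 was found in 19.7% of CD8 T cells with Tox and 0.333% of those without in P-LC24, in 3.91% and 0.905% in P-HC24, in 11.9% and 0.719% in I-LC32 and in 27.7% and 3.49% in I-HC32. The share in cells without Tox was low in all libraries, and the share in cells with Tox varied. Lag3 was likewise found in 13.0%, 3.35%, 9.39% and 10.7% of cells with Tox and in at most 0.719% of those without. Cd160 was the exception in P-HC24, at 2.23% of cells with Tox and 3.39% of those without.

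**Figure D3:**
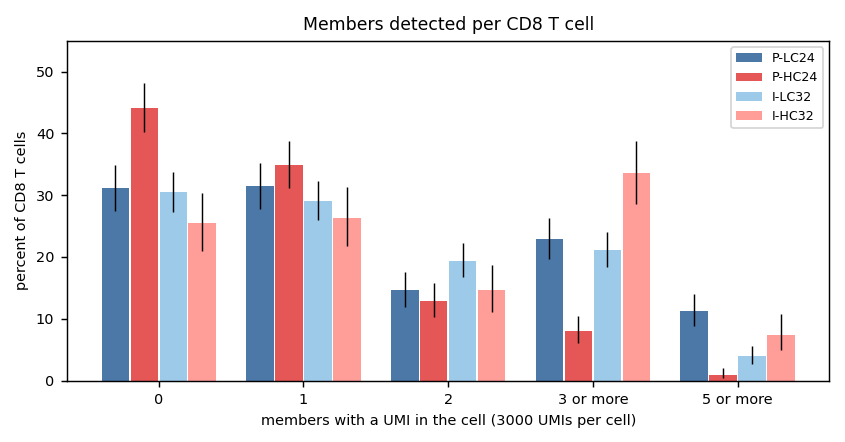
Percent of CD8 T cells, each thinned to 3000 UMIs, that held a UMI of 0, 1, 2, 3 or more, or 5 or more of the 10 members (the last class lies within the one before it), by library. Bars of error are exact Clopper-Pearson 95% intervals, and P-HC24 has the most cells with 0 members and the fewest with 3 or more.

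The genes most like Tox over the CD8 T cells were found by the difference in detection between thinned cells with and without Tox, averaged over the 4 libraries, among 5066 genes. Gzmk, a granzyme of effector memory cells, came first, in 32.7%, 25.1%, 33.0% and 53.1% of cells with Tox and in 5.0%, 3.85%, 5.52% and 6.40% of those without. Trps1, a GATA-type repressor, came next, and the list went on with S100a6, Itga4, S100a11, Atxn1, Fyn, Rasgef1b, Ccl5 and S100a4. Their own ratios did not all follow Tox. The Progression log2 ratio was −1.11 for Trps1 and −1.21 for Itga4, an integrin subunit of T cell homing, but −0.09 for S100a11 and 0.00 for S100a4. Detection went the other way for Satb1, a chromatin organizer of naive T cells, in 56.1%, 65.4%, 37.1% and 31.1% of cells with Tox and 85.0%, 83.0%, 77.7% and 86.6% of those without (Satb1 was named after its values were seen).

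Other lists of the same biology were set beside the members in CD8 T cells. Over all genes, 17% were at least 1.5-fold lower and 2.62% higher in Progression, and 4.4% lower and 6.66% higher in Intervention. Of 13 further transcription factors linked to exhaustion, 7 were at least 1.5-fold lower and 1 higher in Progression, with a median log2 ratio of −0.73, and none of 13 reached 1.5-fold either way in Intervention (median 0.17). Maf, a factor that drives inhibitory receptor genes, was at 83.7 CPM in P-LC24 and 18.0 in P-HC24 (log2 −2.22, −2.54 to −1.90). Nr4a1, a close relative of Nr4a2, was the 1 higher gene, at 40.5 and 66.8 CPM (0.72, 0.48 to 0.96). Id2, the list's most abundant gene by UMIs, was at 192 and 116 CPM. Of 9 other inhibitory receptors 4 were lower and none higher, among them Cd200r1 (−3.05, −4.42 to −1.92), whose wide interval reflects few UMIs in P-HC24. In Intervention none of 8 was lower and 1 (Klrg1) was higher, with a median of −0.012. Klrd1, a partner chain of NKG2 receptors, stood at 257 and 238 CPM and did not reach 1.5-fold.

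Of 14 effector and cytotoxic genes, 7 were lower and none higher in Progression (median −0.63), and 6 were lower and 2 higher in Intervention (median −0.17). Gzma, a granzyme, was low in both libraries of the high cholesterol arm at 273, 30.9, 170 and 26.4 CPM, with log2 ratios of −3.14 (−3.38 to −2.92) and −2.68 (−3.04 to −2.34). Gzmk was at 82.1, 49.3, 81.3 and 183 CPM, lower in Progression and higher in Intervention, at 1.17 (1.0 to 1.35). These granzymes thus had different patterns over the 4 libraries. Of 11 progenitor and naive genes none reached 1.5-fold in Progression (median −0.26), and 1 was lower and 1 higher in Intervention, and Il7r, the survival receptor of naive and memory cells, was at 1133, 876, 712 and 1120 CPM. Of 11 memory and residency genes 4 were lower in each comparison, including Itgae (−1.69 and −1.11), an integrin of resident cells. Of 12 genes of T cell receptor signaling, 2 were lower in Progression and 1 higher in Intervention, shares near those over all genes given above (17% lower in Progression, 6.66% higher in Intervention). Of 6 ligands of the member receptors measured in these cells, 1 was lower in Progression, likewise near the share over all genes, and 1 of 7 was higher in Intervention. Of the regulatory T cell genes, 2 of 6 were lower and 1 higher in Progression and 2 of 7 higher in Intervention. Of the NK maturation and type 1 innate lymphoid genes, 5 of 7 were lower in Progression and 1 of 6 in Intervention. Of 4 gamma delta T cell genes with enough UMIs, 3 were lower in Progression, and 1 was lower and 2 higher in Intervention. The 5 erythroid markers were all lower in Intervention (median −4.09) and none reached 1.5-fold in Progression.

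In CD4 T cells fewer members could be compared. Lag3, Havcr2 and Cd160 had at most 16 UMIs in any library, and in Progression Pdcd1, Tigit, Eomes and Entpd1 also fell below 50 UMIs over both libraries. In Progression 1 of 3 members with enough UMIs was at least 1.5-fold lower (18.7% of 4675 genes) and none was higher (6.44%). Tox was at 569 CPM in P-LC24 versus 369 in P-HC24, and 491 in I-LC32 versus 476 in I-HC32. P-HC24 was again the lowest library, but the log2 ratio of −0.63 (−0.83 to −0.43) was nearer to the median of all genes (−0.16) than in CD8 T cells. The ratio fell short of 1.5-fold with a 5% mitochondrial limit (−0.31), stricter gates (−0.42) or centring on the median gene (−0.47). It also did so without the 5% deepest cells (−0.56). The difference between the CD8 and the CD4 ratio was not tested.

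In Intervention none of 7 members was lower in CD4 T cells (4.02% of 6982 genes) and 2 were higher (7.03%). Pdcd1 was at 13.0, 25.9, 24.3 and 51.9 CPM in library order, and the Intervention ratio was 1.09 (0.56 to 1.64). Entpd1 was at 19.1, 7.40, 15.5 and 37.0 CPM, with a ratio of 1.26 (0.60 to 1.95). I-HC32 was the highest library for both, and it alone held 50 or more UMIs of either gene at week 32, with 94 of Pdcd1 against 44 in I-LC32 and 67 of Entpd1 against 28. With cells thinned to 3000 UMIs, or with a minimum of 100 UMIs and 10% of cells, 4 members had enough UMIs and 1 was higher. Ctla4 stood at 147, 155, 218 and 268 CPM and Nr4a2 at 75.4, 99.9, 90.7 and 125 CPM, and neither reached 1.5-fold. Regulatory T cells carry Ctla4 and Entpd1, and the 10 genes of their list summed to 482, 566, 693 and 816 CPM in the CD4 gate in library order, led by Icos. Of 5 with enough UMIs in Progression, 4 (Tnfrsf4, Tnfrsf18, Tnfrsf9 and Capg) were at least 1.5-fold higher and none lower, with a median of 1.23, and of 7 in Intervention 1 (Il2ra) was higher and 1 (Capg) lower, with a median of 0.34. Foxp3, the factor that defines these cells, had too few UMIs for either comparison and stood at 16.5, 2.47, 21.0 and 2.76 CPM. The part of these genes in the Ctla4 and Entpd1 levels was not tested.

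Of these gates, NK cells had the widest range of Tox. It was at 656 CPM in P-LC24 (996 UMIs) versus 186 in P-HC24 (78 UMIs), and 453 in I-LC32 (352 UMIs) versus 1031 in I-HC32 (337 UMIs). P-HC24 was the lowest and I-HC32 the highest, with log2 ratios of −1.82 (−2.17 to −1.49) in Progression and 1.19 (0.97 to 1.40) in Intervention. In thinned cells, 57.1%, 29.1%, 45.8% and 68.9% had a Tox UMI. The I-HC32 gate held 50 cells, and 53 of its 337 UMIs came from a single cell.

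Of 6 members with enough UMIs in NK cells, 2 (Tox and Tigit) were at least 1.5-fold lower in Progression (18.6% of 5403 genes) and none was higher (6.09%). Tigit passed the minimum of 50 UMIs through P-LC24 alone, with 70 UMIs there and 6 in P-HC24, 3 of them in 1 cell. Its level was 46.1, 14.3, 33.5 and 58.1 CPM in library order, and the interval of its ratio of −1.69 (−3.19 to −0.50) reached inside 1.5-fold. In Intervention none of 5 was lower (6.95% of 3884 genes) and 3 were higher (8.08%), namely Tox, Cd160 and Entpd1. Cd160 was at 93.5, 73.7, 104 and 190 CPM in library order, a ratio of 0.86 (0.36 to 1.36) in Intervention, with 16 of the 62 UMIs of I-HC32 in 1 cell. The share of NK cells with a Cd160 UMI was not higher in I-HC32, at 26% against 28.1% in I-LC32. In CD8 T cells the Cd160 level was lower in I-HC32. Entpd1 was at 79.7, 66.6, 61.8 and 113 CPM (0.87, 0.21 to 1.52), with 9 of the 37 UMIs of I-HC32 in 1 cell. With the cell richest in the gene left out of I-HC32 alone the ratio was 0.52 for Cd160 and for Entpd1, under 1.5-fold. With the cell richest in the gene left out of both week 32 libraries it was 0.65 (0.082 to 1.2) for Cd160 and 0.63 (−0.11 to 1.34) for Entpd1. Eomes, which marks conventional NK cells against type 1 innate lymphoid cells, varied little at 203, 178, 178 and 144 CPM, and Nr4a2 stood at 327, 316, 297 and 245 CPM. Havcr2 had 0 UMIs in all 4 NK gates, and Pdcd1 had 0, 0, 2 and 8 UMIs, the 8 in 1 cell.

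Genes of NK maturation and of type 1 innate lymphoid cells also differed in this gate. Of 10 measured, 4 were lower in Progression and none higher, against 18.6% and 6.09% of all genes in the gate. Of 9 measured, 2 were lower and 2 higher in Intervention, against 6.95% and 8.08%. Cd200r1, a receptor of type 1 innate lymphoid cells, was at 41.5, 11.9, 28.3 and 119 CPM. It was among the genes lower in Progression and higher in Intervention. Its level in P-HC24 rested on few UMIs, in a gate of 83 cells. Cxcr6, a receptor of liver-resident lymphocytes, was at 32.9, 0, 79.8 and 159 CPM. Itga2, which marks conventional NK cells, was at 591, 366, 385 and 229 CPM. Haemoglobin and myeloid RNA differed as well. The 5 erythroid markers, led by Hbb-bs, summed to 11383, 778, 19967 and 184 CPM in library order, with Alas2 at 0 in P-HC24 and I-HC32. Lyz2 was at 15.8, 92.8, 18.0 and 223 CPM. The part of these differences in the Tox ratio was not tested.

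In all kept cells together, 7 of 10 members were at least 1.5-fold lower in Progression (25.5% of 14840 genes) and none was higher (7.6%). In Intervention 4 of 10 were lower (9.55% of 15643 genes) and 1 was higher (9.13%). Here fewer cells of a type and less RNA per cell cannot be told apart. Tox was at 159, 34.8, 106 and 55.5 CPM, so that it was lower in I-HC32 than in I-LC32 in all cells (log2 −0.93, −0.98 to −0.88) whereas it was higher in the CD8 and NK gates and at −0.04 (−0.18 to 0.09) in the CD4 gate. With equal weight of cells the all-cell Intervention ratio of Tox fell short of 1.5-fold and fewer members were lower, as given below. The CD8 T cells were 4.88% of kept cells in I-HC32 and 11.1% in I-LC32, as given above.

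The gates that held each member's UMIs differed by gene. T cells of all kinds held 73.4%, 73.5%, 77.7% and 69.0% of the Tox UMIs in library order. For Pdcd1 they held 92.3%, 72.1%, 82.9% and 74.8%. By contrast most Ctla4 UMIs lay in B cells, at 51.8%, 66.6%, 62.8% and 62.0%, and T cells held 29.7%, 12%, 18.4% and 12.2%. Myeloid cells held 16.9%, 55.5%, 20.7% and 56.3% of Nr4a2 UMIs and 34.0%, 56.4%, 33.0% and 34.5% of those of Havcr2. Entpd1 lay mainly outside T cells, which held at most 8.85% of its UMIs.

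**Figure D4:**
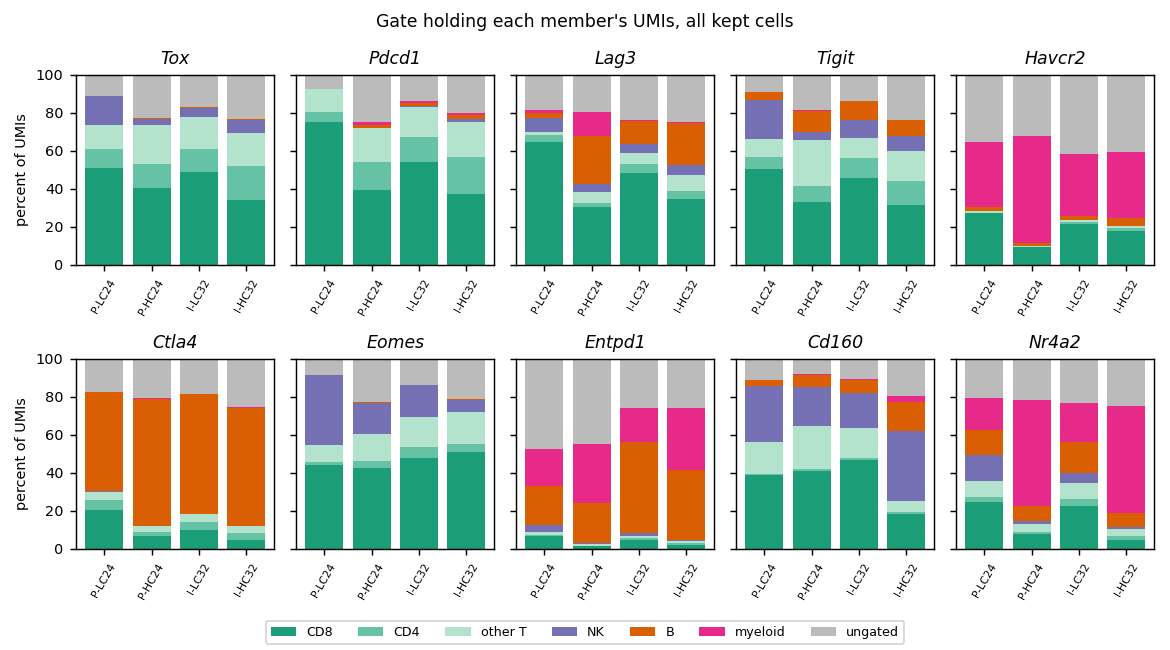
Percent of each member's UMIs over all kept cells that lay in each gate, stacked to 100%, for the 4 libraries. T cell gates (green) hold most UMIs of Tox and Pdcd1, B cells (orange) most of Ctla4, and myeloid cells (pink) the largest named share of Nr4a2 in P-HC24 and I-HC32.

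The myeloid levels of 2 members had patterns of their own. Havcr2 in the myeloid gate was at 63.2, 11.3, 21.4 and 4.99 CPM in library order, low in both libraries of the high cholesterol arm. Nr4a2 there was at 189, 405, 212 and 406 CPM, high in the same libraries. The all-cell ratios of these genes, −2.13 and 0.46 in Progression and −0.76 and 0.89 in Intervention, therefore describe myeloid cells as well as T cells.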

How the data were processed

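Liver FNA biopsies were dissociated, red cells and dead cells were removed, and libraries were made with a 3' droplet kit. Cell Ranger 9.0.1 and GRCm39 are named in the submitters' processing notes, and the deposited values are whole-number UMI counts, not normalized. The study's clustering and free RNA correction were not used here. The version's default counts intronic reads, but the setting used is not given in the sources used here.

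Cells with at least 500 UMIs, at least 300 genes and at most 10% mitochondrial UMIs were kept. T cells had a sum of Cd3d, Cd3e and Cd3g of at least 2, with at most 2 UMIs each of B cell (among them Cd79a, Cd79b and Ms4a1) and myeloid (Csf1r, Adgre1, C1qb) markers. CD8 T cells also had Cd8a or Cd8b1 and no Cd4, and CD4 T cells the reverse. NK cells had no CD3 UMI, Ncr1 and at least 2 UMIs of Ncr1 and Klrb1c. These limits leave out cells with strong signal of another lineage. The cells with the highest Scrublet scores were marked as doublets, in a number set beforehand at 0.8% for every 1000 kept cells. Of the CD8 T cells, 2 to 5 per library were so marked, and they were kept.

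Summed UMIs were scaled to CPM with exact Poisson intervals, shares had exact Clopper-Pearson intervals, and ratios had exact conditional intervals. A ratio of at least 1.5-fold with at least 50 UMIs over both libraries was counted, as a description. The interval code was tested on simulated counts drawn independently for each gene. Such counts do not mimic UMIs of a gene grouped in few cells, so that spread was not covered by the test. Shares were taken after thinning to 3000 UMIs (seed 1), which left out at most 15 CD8 T cells per library. Free RNA was estimated from Ighm, Ighd and Igkc. Python 3.11.15, numpy 2.4.6, scipy 1.17.1 and pandas 2.3.3 were used, with Scrublet in scanpy 1.11.5 for an alternative.

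The members and the gene lists were chosen with earlier results of these data known. All members were named, and of each other list the most abundant gene and those with the highest and the lowest Progression ratio, with others named for their pattern after their values were seen. Genes like Tox were the 10 with the largest difference in detection, among genes in at least 5% of thinned CD8 T cells of every library. In all, 19 alternatives were planned, and 1 was added after seeing the data (the cell richest in each gene left out). Of these, 1 on a subset of T cells is not reported here. The others concern the mitochondrial limit, doublets, gates, cells without Foxp3, scaling, thinning, the UMI minimum, free RNA and the fold. Histology was not analysed here.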

Additional observations from a re-analysis of the deposited data

Results flagged for a closer look

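For 10 results with at least 50 UMIs in each comparison, the Progression and the Intervention ratio lay on opposite sides of 0. Both counting intervals were clear of 0. With 1 library per condition, the difference was not tested. In CD8 T cells the Intervention log2 ratio exceeded the Progression ratio by 1.89 for Tox, 3.08 for Pdcd1, 2.44 for Tigit, 3.44 for Havcr2, 1.2 for Ctla4, 2.08 for Eomes, 2.03 for Entpd1 and 0.58 for Nr4a2. Each of these 8 genes was lower in P-HC24 than in P-LC24 and higher in I-HC32 than in I-LC32. Of all genes compared in CD8 T cells, 70.5% were lower in Progression and 41.8% in Intervention. The share of all genes with ratios on opposite sides of 0 was not taken. The Progression ratio of Nr4a2, −0.33, lay near the median of all genes in that gate (−0.23). The low week 24 values are also those that chose the set. The Intervention interval of Havcr2 was not clear of 0 without the cell richest in it. With that cell left out of both week 32 libraries the ratio was 0.43, with an interval across 0 as given above. With it left out of I-HC32 alone the ratio was 0.15. In NK cells Tox differed by 3.01, from −1.82 in Progression to 1.19 in Intervention. In all kept cells Entpd1 differed by 0.27, from −0.12 to 0.15. With a 5% mitochondrial limit these ratios were 0.42 and 0.03, on the same side of 0. The value of −0.12 also lay above the median of all genes in Progression (−0.28). Lag3 had an interval in Intervention that reached across 0, and Cd160 was lower in both comparisons, so neither is among them in CD8 T cells.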

How the results depend on the processing

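No paired analysis was possible because each condition has 1 library. No ratio at least 1.5-fold from 1 reversed under the alternatives tried. In CD8 T cells the count of members lower in Progression was 7 to 10 of 10, and the Tox log2 ratio was −1.75 to −1.43. Of the ratios of members other than Tox, 79 of 546 moved beyond the counting interval, for example Lag3 in CD8 T cells to −1.79, Havcr2 in all cells to −1.36 and Ctla4 in all cells to −0.54 in Progression with a 5% mitochondrial limit, and Entpd1 in CD8 T cells to −2.45 with Scrublet doublets left out. The following values of Tox and counts of members moved beyond the counting interval or, for counts, by over 1.5 times, and the cause was not tested. Shares over all genes are given only for the settings of the main results, not under these alternatives. With a 5% mitochondrial limit the Tox ratio in all cells was −1.85 in Progression and −1.34 in Intervention, −1.45 in CD8 and −0.31 in CD4 T cells in Progression. Members higher then numbered 1 (all cells, Progression), 0 (all cells, Intervention) and 2 (CD8, Intervention), and members lower in CD4 T cells 0 in Progression and 1 in Intervention. With Scrublet doublets left out, Tox was −2.35 in all cells in Progression. Without the 5% deepest cells, Tox was −0.81 in all cells and 0.34 in CD8 T cells in Intervention, and 0 members were lower in CD4 T cells in Progression. With stricter gates, Tox was 0.35 (CD8) and 1.69 (NK) in Intervention and −0.42 (CD4) in Progression, with 0 members lower in CD4 T cells in Progression and 1 in NK cells in Intervention. Without Foxp3 cells, Tox was 0.11 in CD4 T cells in Intervention. With equal weight of cells, Tox in all cells was −1.92 and −0.51, and 2 members were lower in Intervention. As UMIs per cell, Tox was −1.87 and −0.59 in all cells, 0.086 in CD8 T cells in Intervention and −2.25 in NK cells in Progression. Members higher numbered 1 in all cells in Progression and 2 in CD8 T cells in Intervention, and 5 were lower in NK cells in Progression. Centred on the median gene, Tox was −1.92 in all cells and −1.43 in CD8 T cells in Progression, with 1 member higher in all cells and 0 lower in CD4 T cells. In thinned cells, 1 member was higher in CD4 T cells and 1 in NK cells in Intervention, and 1 was lower in NK cells in Progression. With at least 20 UMIs, 2 members were lower and 2 higher in CD4 T cells in Progression, 1 lower in CD4 T cells and 6 higher in NK cells in Intervention. With at least 100 UMIs and a UMI in 10% of cells, 1 was lower in all cells in each comparison, 1 higher in CD4 T cells in Intervention and 1 lower in NK cells in Progression. At 1.2-fold, 1 member was higher in all cells and in CD4 T cells in Progression, and in Intervention 1 was lower and 4 higher in CD4 T cells and 2 were lower in NK cells. At 2-fold, 1 was lower and 0 higher in all cells, 2 higher in CD8 T cells and 1 higher in NK cells in Intervention, and 0 lower in CD4 T cells in Progression. Thinned to 1500 UMIs, Tox was found in 40.8%, 19.1%, 38.7% and 41.2% of CD8 T cells in library order, and at 5000 UMIs in 56.7% of P-LC24 and 53.1% of I-LC32. The NK gates, of 50 to 223 cells, and CD4 counts below 50 UMIs limit what depth can show.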
